A study of Rattus norvegicus with 862 samples.

Results

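Dbp, Tef, Hlf and Nfil3 were followed in the hearts of male Sprague-Dawley rats given drugs and toxicants or vehicle alone. They are 4 of the 14217 genes that a probe set with a single gene symbol measured, and they were chosen by name, each through its probe set of the highest mean level. The arrays numbered 862 and came from 840 rats, 611 given 1 of 88 compounds and 229 given vehicle only, in 65 studies. Rats were bought at 6 to 8 weeks of age and kept for 1 week before use, and the treated rats were dosed daily or by subcutaneous mini-pump, mostly for 1, 3 or 5 d. Each group is a compound at its dose, vehicle and route, and the control rats received the vehicle alone, which was water, saline, corn oil, CMC, CMC/SDS/Povidone or a mixture of Acacia, PS80 and Antifoam. Hearts of the 1 d groups were collected from the early afternoon, those of the 3 and 5 d groups in the morning, with lights on in the daytime. Duration, number of doses and time of day therefore cannot be told apart between these groups.

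Dbp, Tef and Hlf encode the PAR bZIP transcription activators, which bind a DNA element called the D-box. Nfil3, also called E4BP4, encodes a repressor that binds the same element. All are outputs of the circadian clock, in which Bmal1 with Clock or Npas2 drives genes carrying E-boxes, the Period and Cryptochrome proteins inhibit that step, and the Rev-erb proteins (Nr1d1, Nr1d2) repress Bmal1 and Nfil3 through elements called RREs, so that in many tissues Dbp peaks when Nfil3 is low.

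The promoters are shown so that the bases beside each start can be read for letters of known clock elements. Each window covers 250 bases before to 50 bases after the annotated start, 300 bases in all, as given by RefSeq on the rat build GRCr8, and 3 of the 4 members had an entry. Capitals mark every match to a searched motif, and all other letters are in lower case.

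Dbp: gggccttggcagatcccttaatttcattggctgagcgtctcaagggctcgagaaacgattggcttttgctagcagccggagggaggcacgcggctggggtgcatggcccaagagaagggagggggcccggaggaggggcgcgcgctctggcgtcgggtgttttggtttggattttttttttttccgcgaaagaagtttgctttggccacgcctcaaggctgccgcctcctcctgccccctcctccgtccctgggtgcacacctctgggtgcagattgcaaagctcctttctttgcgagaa

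Tef: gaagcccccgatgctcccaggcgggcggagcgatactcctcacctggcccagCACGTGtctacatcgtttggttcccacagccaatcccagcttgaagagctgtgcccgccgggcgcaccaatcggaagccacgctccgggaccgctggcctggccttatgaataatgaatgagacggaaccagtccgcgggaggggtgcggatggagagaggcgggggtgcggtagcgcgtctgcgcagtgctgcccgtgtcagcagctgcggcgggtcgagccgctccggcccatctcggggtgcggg

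Nfil3: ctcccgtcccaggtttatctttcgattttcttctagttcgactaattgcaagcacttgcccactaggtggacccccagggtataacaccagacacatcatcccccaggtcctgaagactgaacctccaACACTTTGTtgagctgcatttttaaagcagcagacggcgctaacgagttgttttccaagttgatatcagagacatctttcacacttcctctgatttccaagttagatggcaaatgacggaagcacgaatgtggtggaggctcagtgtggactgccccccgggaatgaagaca

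The Dbp window lies at chr1:105312006-105312305 on the plus strand, the Tef window at chr7:115206577-115206876 on the plus strand and the Nfil3 window at chr17:12432126-12432425 on the plus strand. The Dbp gene spans positions 105312256 to 105317205 of chromosome 1, and the Nfil3 gene positions 12432376 to 12447605 of chromosome 17. The Tef gene spans positions 115197180 to 115221930 of chromosome 7, so its window surrounds a start inside the gene. The Hlf gene spans positions 75651320 to 75708979 of chromosome 10.

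The motifs were searched on both strands. They were the D-box (TTATGTAA or TTACGTAA), the E-box (CACGTG), the E'-box (CACGTT), an RRE-like element (TAGGTCA) and a glucocorticoid-response-like element (ACANNNTGT). The Tef window held 1 E-box, starting at position 53 of the window, and the Nfil3 window held 1 glucocorticoid-response-like match, starting at position 129. The Dbp window held no match to these letters. Of 33469 rat promoters of the same length, 6.42% held the E-box and 6.86% the glucocorticoid-response-like element. The shares were 1.01% for the D-box, 4.83% for the E'-box and 2.63% for the RRE-like element. These are letter matches and not binding sites. The windows differed in base composition, with 59.7% G and C in Dbp, 67.7% in Tef and 48.7% in Nfil3.

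Levels are log2 values of the probe sets, so a difference of 1 is a doubling. Levels of different probe sets are not on one scale and are not compared. Dbp and Nfil3 had a single probe set each. The Tef probe set followed its other probe sets with Pearson's r of 0.850 and 0.759 across rats. The Hlf probe set had a mean of 5.66, at the 29.6th percentile of gene means, and its other probe sets followed it with r of 0.765, 0.629 and -0.048, so Hlf was measured near the low end of the arrays. Marker medians over 828 rats were 14.04 for heart muscle, 9.52 for endothelial cells, 8.38 for red blood cells and 7.40 for macrophages. They were 5.16 for liver and 4.73 for adipocytes, and are listed without comparison between lists. Some control rats stood apart, with liver marker medians up to 9.93 among the guanethidine controls and 9.17 among the valdecoxib controls, and adipocyte medians up to 9.41 among the trimethadione controls. Counted as doubtful were 30 arrays whose r with the average array was under 0.95, or whose median was over 8 for liver or over 7 for adipocyte markers. Without them the Dbp changes were 3.19 in guanethidine, 2.87 in valdecoxib and 2.66 in trimethadione, each still called, and the single lower call of Dbp was lost. In whole tissue, fewer cells of a type and less RNA per cell cannot be told apart.

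In control rats Dbp was higher in the afternoon 1 d hearts than in the morning hearts, and Nfil3 was lower. Dbp in the 52 control rats of 1 d ran from 6.40 through a median of 9.08 to 10.58. In the 72 control rats of 3 d it ran from 6.01 through 7.06 to 10.58, and in the 85 of 5 d from 5.91 through 6.98 to 10.33. The groups overlapped over nearly their whole range, yet most 1 d rats lay above most morning rats. The means were 8.79 ± 1.27 (SD, n = 52) at 1 d, 7.28 ± 0.909 (SD, n = 72) at 3 d and 7.38 ± 1.07 (SD, n = 85) at 5 d. The limma fit, which allowed for vehicle, route and RNA extraction campaign, put Dbp 1.34 higher at 1 d than at 3 and 5 d (SE 0.158, adjusted p = 6.9e-11). This was the largest difference, in either direction, among the 14217 genes.

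Nfil3 ran the other way. It spanned 6.24, 7.05 and 8.35 (lowest, median and highest) at 1 d, 6.44, 8.06 and 8.96 at 3 d, and 6.34, 8.00 and 8.95 at 5 d. The ranges overlapped, with the 1 d median about 1 log2 unit below the others. Nfil3 was lower at 1 d by 0.62 on the log2 scale (limma log2 difference -0.62, SE 0.0881, adjusted p = 7.7e-08), rank 9 of 14217 by size.

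Tef moved with Dbp by a smaller amount. Its lowest, median and highest levels were 7.28, 8.05 and 9.80 at 1 d, 6.76, 7.77 and 9.27 at 3 d, and 6.52, 7.68 and 9.34 at 5 d, with wide overlap. The log2 difference was 0.44 (SE 0.0676, limma adjusted p = 9.98e-07), which passed the p threshold and was under the 1.5-fold limit of a call. Hlf had a log2 difference of 0.11 (SE 0.0444, adjusted p = 0.204), from levels of 5.71 ± 0.338 (SD, n = 52) at 1 d, 5.62 ± 0.256 (SD, n = 72) at 3 d and 5.65 ± 0.303 (SD, n = 85) at 5 d. A call here is an adjusted p of 0.01 or less over all genes with a change of 1.5-fold or more. By that rule 11 genes, 0.0774% of those tested, differed, and Dbp and Nfil3 were 2 of them.

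**Figure D1:**
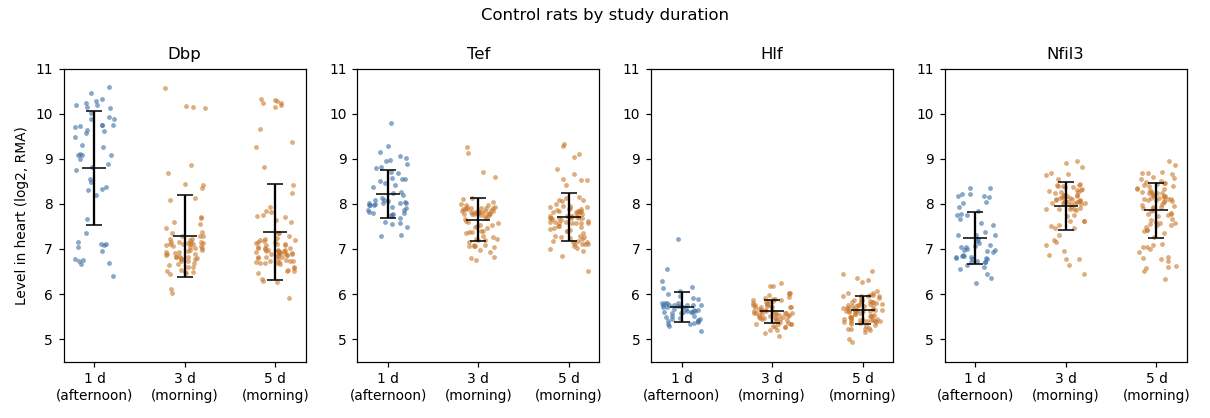
Level of each member in the heart (log2, RMA) in every control rat at 1, 3 and 5 d, 1 point per rat, with bars for the mean and SD. Dbp and Tef sit higher and Nfil3 lower at 1 d, and some morning rats have Dbp above 10.

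The other genes called between the afternoon and morning control hearts were mostly clock genes. The core clock list holds 15 genes, of which 13 were measured. Of these 5 were higher and 2 lower at 1 d, with a median log2 difference of 0.15 against 0.004 over all genes. Higher were Per3 (0.97), Per2 (0.61), Nr1d1 (0.76), Nr1d2 (0.92) and Bhlhe41 (0.60), all repressors in the clock loop. Lower were Bmal1 (-1.01) and Npas2 (-0.62), its activators. The remaining 2 called genes were Alox15 (0.67), a lipoxygenase, and Mest (0.62), a paternally expressed gene.

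No gene was called among the 9 measured of 10 genes listed by name as carrying D-boxes or following PAR bZIP factors. Whether the listed genes follow these factors in heart was not tested. Usp2, a clock-linked deubiquitinase, came nearest among them with a log2 difference of 0.36 (limma adjusted p = 1.33e-05). None of the 6 other bZIP genes listed, the C/EBP genes with Atf4 and Crem, was called, and their median log2 difference was -0.05. Between 5 d and 3 d, both morning groups, no gene was called, and the log2 differences were 0.13 for Dbp, 0.11 for Tef, 0.03 for Hlf and -0.16 for Nfil3.

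Within RNA extraction campaigns, which are blocks of extraction dates in the labels, the direction held in each of the 4 that included 1 d rats. Dbp was 1.13, 2.40, 1.57 and 1.97 higher at 1 d on the log2 scale within them. The campaign with 1.57 missed the threshold (limma adjusted p = 0.0729). Nfil3 was lower, with log2 differences of -0.57, -1.14, -0.50 and -0.82, of which the last 2 missed it (adjusted p of 0.454 and 0.192). Tef was 0.36, 0.71, 0.47 and 0.76 higher, at adjusted p of 0.0173, 0.0546, 0.112 and 0.0175.

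Duration left much of the spread between control rats undescribed. At 1 d, 38 of 52 rats had Dbp at or above 8 and 14 rats, from 11 studies, lay below it. At 3 and 5 d the split was the reverse, with 24 of 157 rats at or above 8 and 133 below. The level of 8 was set by eye after seeing the values, and these are counts with no test.

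Nfil3 and Tef differed with Dbp in these rats. In the 24 morning rats with Dbp at or above 8, Nfil3 had its lowest, median and highest levels at 6.34, 6.82 and 7.56, and in the 133 below 8 at 7.01, 8.10 and 8.96. In the 14 rats of 1 d with Dbp below 8, Nfil3 ran from 7.65 through 8.03 to 8.35. In the 38 others of 1 d it ran from 6.24 through 6.90 to 8.15. An afternoon rat with low Dbp thus had Nfil3 in the range of the morning rats with low Dbp. Tef followed Dbp, with a median of 8.52 in the morning rats at or above 8 and 7.63 in those below. Hlf had medians of 5.55 and 5.63 in the same rats, with ranges of 5.00 to 6.50 and 4.93 to 6.43 that overlapped.

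Correlations between members were taken separately in the 1 d and the morning control rats, since these form separate groups, and 12 relations were tested with p-values from 100000 permutations adjusted by Benjamini-Hochberg. Dbp and Nfil3 were inversely related, with Pearson's r of -0.843 and Spearman's rho of -0.751 at 1 d (n = 52), and r of -0.775 and rho of -0.529 in the morning (n = 157). Dbp and Tef had r of 0.785 and rho of 0.878 at 1 d, and r of 0.753 and rho of 0.539 in the morning. Tef and Nfil3 had r of -0.637 and -0.596, with rho of -0.676 and -0.415. For these 3 pairs the unadjusted permutation p for r and for rho was 1e-05, the smallest that 100000 permutations can give.

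Without the 2 rats farthest from the median of Dbp, r for Dbp and Nfil3 was -0.826 at 1 d and -0.763 in the morning. Within single campaigns in the morning it ran from -0.949 to 0.298, so the relation did not hold in every campaign. For Dbp and Tef the campaign range was 0.153 to 0.868. Rats of 1 study share their handling and are not independent of each other.

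Hlf stood apart from the other members. Its r with Dbp was 0.373 at 1 d (rho 0.426, adjusted permutation p for r = 0.00748) and 0.011 in the morning (adjusted permutation p = 0.891), where rho was -0.244 (adjusted permutation p = 0.00292). Over all campaigns together, the rank relation of Hlf with Dbp had opposite signs in the afternoon and the morning rats, and the difference was not tested. Within single campaigns in the morning r ran from -0.496 to 0.277 and rho from -0.413 to 0.029. In the largest of them (n = 93) rho was -0.033, so the negative relation did not hold in every campaign. With Nfil3, Hlf had r of -0.142 at 1 d (rho -0.134, adjusted permutation p for r = 0.425) and 0.022 in the morning (rho 0.077). Its largest relation was with Tef at 1 d, r of 0.552 and rho of 0.414, which was 0.343 without the 2 farthest rats.

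**Figure D2:**
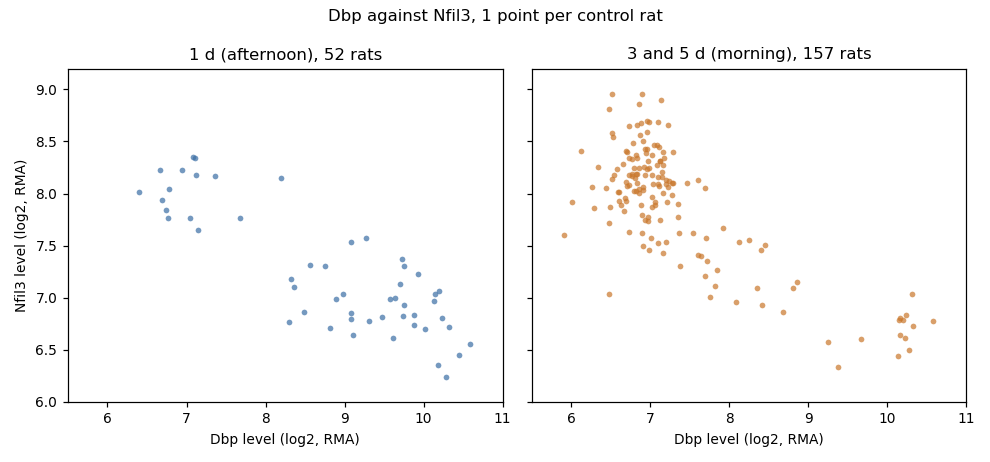
Dbp level (log2, RMA, horizontal) against Nfil3 level (log2, RMA, vertical), 1 point per control rat, for 52 rats of 1 d and 157 rats of 3 and 5 d. Rats with high Dbp have low Nfil3 in both panels, and most morning rats gather at low Dbp and high Nfil3.

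The genes most like each member were named by Pearson's r over the 209 control rats, with levels centred within duration and campaign. The 5 highest for Dbp were Per3 (0.888), Bhlhe41 (0.879), Nr1d2 (0.819), Tef (0.802) and Ephx1 (0.770), a microsomal epoxide hydrolase. The 5 lowest were Bmal1 (-0.883), Nfil3 (-0.793), Npas2 (-0.776), Cry1 (-0.653) and Slc41a3 (-0.648). For Tef the highest were Dbp, Bhlhe41 (0.760), Per3 (0.733), Ephx1 (0.724) and Per2 (0.723), and the lowest were Bmal1 (-0.768), Npas2 (-0.736), Slc41a3 (-0.640), Nfil3 (-0.618) and Asb2 (-0.591).

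For Nfil3 the highest were Cry1 (0.820), Bmal1 (0.779), Rrad (0.615), Asb2 (0.608) and Pnrc1 (0.602). Its lowest were Per3 (-0.851), Nr1d2 (-0.801), Dbp (-0.793), Nr1d1 (-0.766) and Bhlhe41 (-0.653). Hlf had lower values throughout: Tef (0.462), Wee1 (0.447), Cry2 (0.446), Per2 (0.416) and Mthfd1l (0.413) were its highest, and Ppp1r16b (-0.420), Col5a3 (-0.394), Slc41a3 (-0.383), Npas2 (-0.374) and Creb3l1 (-0.362) its lowest.

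Control rats of different studies differed in Dbp by far more than rats of 1 study did. Among intravenous saline controls of 3 d in the same campaign, the 2 rats of a single study had Dbp at 10.13 and 10.58. The 6 rats of other studies had 6.01, 6.78, 7.02, 7.23, 7.60 and 7.70. At 5 d the rats of that study had 10.24 and 10.27, a rat of another study had 10.15, and the other 5 lay between 6.83 and 7.21. So the rats of 1 study stood together, in this case near the top of the range. The 3 d group held the widest range of study means of Dbp among the groups tested below.

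The limma F test of study within groups of the same vehicle, route, duration and campaign covered 140 rats of 43 studies in 19 such groups. It gave F = 16.0 for Dbp (adjusted p = 4.14e-09), 5.68 for Tef (adjusted p = 0.000139), 4.08 for Nfil3 (adjusted p = 0.00299) and 2.31 for Hlf (adjusted p = 0.066). Over all genes 1.65% passed the same threshold of 0.01, and here 3 of the 4 members did. The SD between study means of Dbp was 1.06, against 0.309 between rats of 1 study. The same pair of SDs was 0.447 and 0.214 for Tef, 0.564 and 0.324 for Nfil3, and 0.255 and 0.177 for Hlf. The 140 rats formed 116 sets of 1 study in 1 group, so most study means were single rats. The SD between study means therefore holds the spread between rats too, and the SD within studies rests on 24 degrees of freedom. The widest range of study means in a single group was 4.34 log2 units for Dbp, 1.79 for Tef, 2.13 for Nfil3 and 1.57 for Hlf. The median range of study means over the groups was 1.57 for Dbp, 0.99 for Tef, 1.38 for Nfil3 and 0.517 for Hlf. What in a study moved with these levels was not tested.

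Treated rats were then compared with matched controls, which are control rats of the same vehicle, route, duration and campaign from any study. A compound at 1 dose, vehicle and route is 1 profile, and 95 of the 97 profiles had matched controls. Many profiles share the same control rats, so they are not independent of each other. Dbp was called higher in 25 profiles and lower in 1, Tef higher in 22, Hlf higher in 6, and Nfil3 lower in 18. Tef and Hlf were called lower in none, and Nfil3 higher in none. Over all genes and profiles, 0.357% of tests were called higher and 0.344% lower, against 26.3% of profiles higher for Dbp. The median log2 change was 1.05 for Dbp, with 79 of 95 profiles above 0, 0.38 for Tef, with 75 above 0, -0.04 for Hlf, with 40 above 0, and -0.54 for Nfil3, with 13 above 0. The counts mostly fell with fewer rats or fewer units, though for Tef not in every run. Leaving out treated replicate 1 of every condition gave 16 Dbp, 15 Tef and 8 Nfil3 calls, and leaving out treated replicate 2 gave 14 for Tef. The mean of each study, duration and arm was also taken as 1 sample, called study means as samples below. Dbp was then called higher in 7 profiles, Tef in 6, Hlf in 2, and Nfil3 lower in 1. A study gave 1 mean per duration, so means of the same study are not independent of each other.

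**Figure D3:**
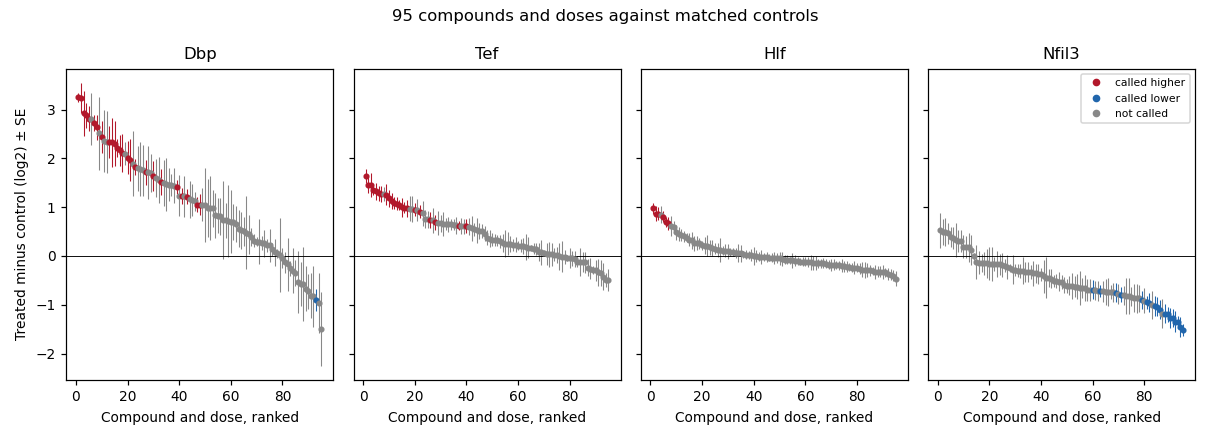
Treated minus matched control level (log2, with SE) of each member in 95 compounds and doses, ranked from highest to lowest, with called profiles in colour. Dbp runs from 3.25 down to -1.49 and Nfil3 lies mostly below 0.

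Several profiles had more than 1 member called. Dbp and Tef were both called, in the same direction, in 15 profiles, 57.7% of the Dbp calls and 68.2% of the Tef calls. Dbp and Nfil3 were both called, in opposite directions, in 16 profiles, 61.5% of the Dbp calls and 88.9% of the Nfil3 calls. All 4 members were called in fenofibrate and guanethidine, 3 of them in 9 more profiles and 2 in 13, of 35 profiles with any member called. In 60 profiles no member was called. Of the 6 profiles with Hlf called, Dbp was called in 3, Tef in 5 and Nfil3 in 2.

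The changes in Dbp were largest for guanethidine, an adrenergic neuron blocker, at 132 mg/kg by oral gavage. The 6 treated rats of 3 and 5 d had Dbp from 10.00 through a median of 10.23 to 10.35, and the 11 control rats from 6.44 through 7.03 to 7.20. The groups did not overlap. Dbp was 3.25 higher on the log2 scale (SE 0.0988, limma adjusted p = 4.28e-13). Tef was 0.99 higher, Hlf 0.67 higher (adjusted p = 0.00197) and Nfil3 was lower, with a log2 change of -1.35 (SE 0.122, adjusted p = 2.99e-06, and 0.0123 with study means as samples). The Tef and Hlf calls were lost with study means too (adjusted p of 0.122 and 0.0876). None of these control rats came from the study that held the guanethidine rats, so compound and study cannot be told apart.

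In fenofibrate, a PPARA agonist, Dbp was also higher than in controls of its own study. At 215 mg/kg the 6 treated rats of 3 and 5 d had Dbp from 9.96 through 10.37 to 10.75. The 19 control rats ran from 6.52 through 6.90 to 10.17, so 1 control rat lay among the treated rats. The 2 control rats of the same study, at 7.28 and 6.82, lay below every treated rat. Fenofibrate's log2 changes against matched controls were 3.24 for Dbp (SE 0.309, limma adjusted p = 1.43e-07, and 0.0122 with study means as samples), 1.65 for Tef (SE 0.145, adjusted p = 3.96e-08), 0.98 for Hlf (SE 0.118, adjusted p = 5.28e-06) and -1.18 for Nfil3 (SE 0.195, adjusted p = 0.000385, and 0.141 with study means as samples). Tef ran from 8.56 through 9.40 to 9.90 in the treated rats, and the 2 own-study control rats lay below them, between 7.60 and 7.99. Against own-study controls the Tef call remained (1.57, adjusted p = 0.00814), while Nfil3 (-1.21, adjusted p = 0.0251) and Hlf (0.90, adjusted p = 0.295) missed the threshold. In the fenofibrate rats 2 of 4 red blood cell markers were lower (median log2 change -0.79, levels of 6.77 to 8.30 against 8.00 to 9.75 in controls), and the 3 atrial markers, none called, had a median change of 1.97. Their part in the change of the members was not tested.

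Own-study controls existed for 51 profiles. In these, 8 of the matched-control calls were for Dbp and 8 for Tef, and against own-study controls 5 and 2 remained. Hlf had 3 matched calls there and none against own-study controls. Nfil3 had 6, and 3 were called against own-study controls, 2 of them the same profiles. Over all genes 0.0637% of these tests were called higher and 0.0891% lower. Own-study controls numbered few per profile, so a call missed there does not show that the level did not differ. In some profiles, ifosfamide and metoprolol at 120 mg/kg among them, every matched control came from the own study. Both comparisons are then the same fit, and a call could not be lost. The direction was above 0 in 42 of 51 profiles for Dbp and 41 for Tef, 24 for Hlf, and 8 for Nfil3, with own-study medians of 0.83, 0.31, -0.02 and -0.49. Of all calls, 18 of 26 for Dbp, 14 of 22 for Tef, 3 of 6 for Hlf and 12 of 18 for Nfil3 came from profiles with no own-study control, where compound and study cannot be told apart.

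**Figure D4:**
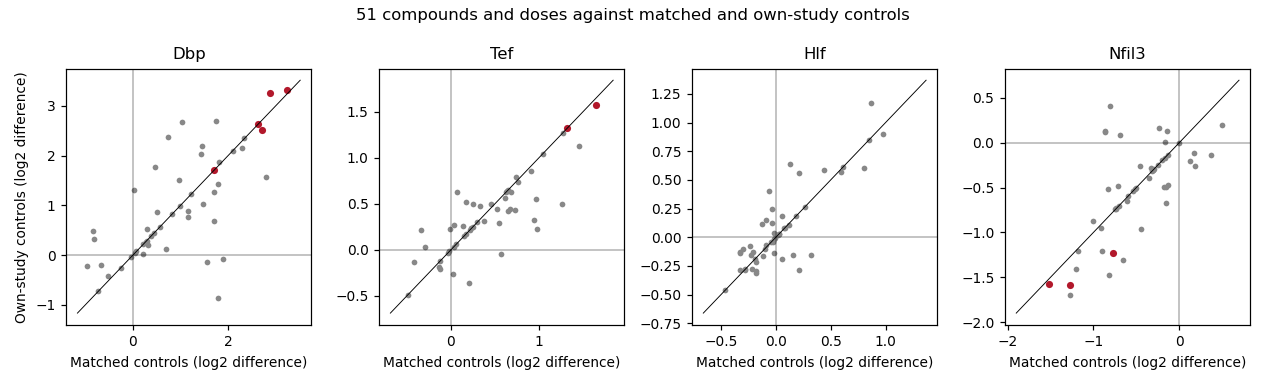
Log2 change against matched controls (horizontal) and against own-study controls (vertical) for the 51 profiles that have both, 1 point per profile, with the line of equal change, and red points called against own-study controls. Dbp changes scatter about the line, and 5 profiles are red for Dbp. Profiles whose matched controls all came from their own study lie on the line by definition. For some others the vertical value rests on fewer treated rats than the horizontal one.

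The 5 Dbp calls against own-study controls were fenofibrate, valdecoxib, ifosfamide, trimethadione and metoprolol. Metoprolol falls outside the naming rule and was named after its values were seen. Valdecoxib, a COX-2 inhibitor, at 404 mg/kg gave Dbp from 9.56 through 10.16 to 10.63 in 6 treated rats. Its 2 own-study control rats lay at 6.66 and 7.02, and its 18 matched controls ran from 6.34 through 7.12 to 9.25. No control rat reached a treated rat. The log2 change was 2.88 (SE 0.265, limma adjusted p = 1.71e-07) against matched and 3.25 (SE 0.255, adjusted p = 0.000561) against own-study controls. Nfil3 lay between 6.37 and 6.91 in the treated rats and at 8.18 and 8.28 in the own-study controls, a log2 change of -1.59 (SE 0.131, adjusted p = 0.000626). Against matched controls the Nfil3 call was lost with study means as samples (adjusted p = 0.262).

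Trimethadione, an anticonvulsant, at 535 mg/kg held the largest Nfil3 change against matched controls. Its 6 treated rats had Nfil3 from 6.27 through 6.62 to 6.76, and its 17 matched controls from 7.60 through 8.10 to 8.70. The groups did not overlap. The log2 change was -1.52 (SE 0.118, limma adjusted p = 1.76e-08) and -1.58 (SE 0.137, adjusted p = 7.4e-05) against the 4 own-study controls. Dbp in the treated rats lay at 9.79, 9.99 and 10.15 at 3 d, and 8.52, 8.95 and 9.06 at 5 d. The own-study controls had 6.63 at 3 d and 6.58, 6.70 and 6.96 at 5 d, all below the treated rats. The Dbp change was 2.72 against matched and 2.51 (SE 0.204, adjusted p = 4.21e-05) against own-study controls.

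Ifosfamide, an alkylating agent, at 143 mg/kg had only own-study controls. Its 6 treated rats had Dbp from 10.12 through 10.41 to 10.72, and the 6 controls from 6.89 through 7.97 to 8.41, without overlap. Dbp was thus 2.64 higher on the log2 scale (SE 0.257, limma adjusted p = 0.000108). Tef rose by 1.32 (SE 0.174, adjusted p = 0.00119, and 0.0471 with study means as samples), from 7.20 through 7.79 to 8.41 in the controls and from 8.75 through 9.16 to 9.41 in the treated rats. Nfil3 ran from 6.57 through 6.84 to 7.04 in the treated rats and 6.93 through 7.32 to 7.75 in the controls, with a small overlap, and was not called. In the same rats 3 of 4 red blood cell markers were lower, with a median log2 change of -3.66. Their median level was 8.25 to 10.05 in controls and 5.36 to 6.61 in treated rats. The 3 atrial markers, none called, had a median change of 1.65, at 5.90 to 6.69 in controls and 6.34 to 12.05 in treated rats. The part of these markers in the change of the members was not tested.

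Metoprolol, a beta-1 blocker, at 120 mg/kg had 9 treated and 9 own-study control rats over 1, 3 and 5 d. Dbp ran from 8.73 through 9.44 to 10.10 in the treated rats and from 6.29 through 7.36 to 9.74 in the controls, overlapping. The log2 change was 1.71 (SE 0.254, limma adjusted p = 0.00457), a call that was lost with study means as samples (adjusted p = 0.128). Nfil3 was not called (-0.54, adjusted p = 0.202). The 3 atrial markers, none called, had a median change of -2.47, at 6.00 to 13.99 in controls and 5.85 to 13.51 in treated rats. Their part in the change of Dbp was not tested. At 1200 mg/kg, with 3 treated rats of 5 d, the log2 change of Dbp was 0.98 (adjusted p = 0.998). Cyproheptadine at 37 mg/kg, an antihistamine also named after its values were seen, had Nfil3 called only against own-study controls (-1.23, adjusted p = 0.000226, against -0.77 with matched controls).

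**Figure D5:**
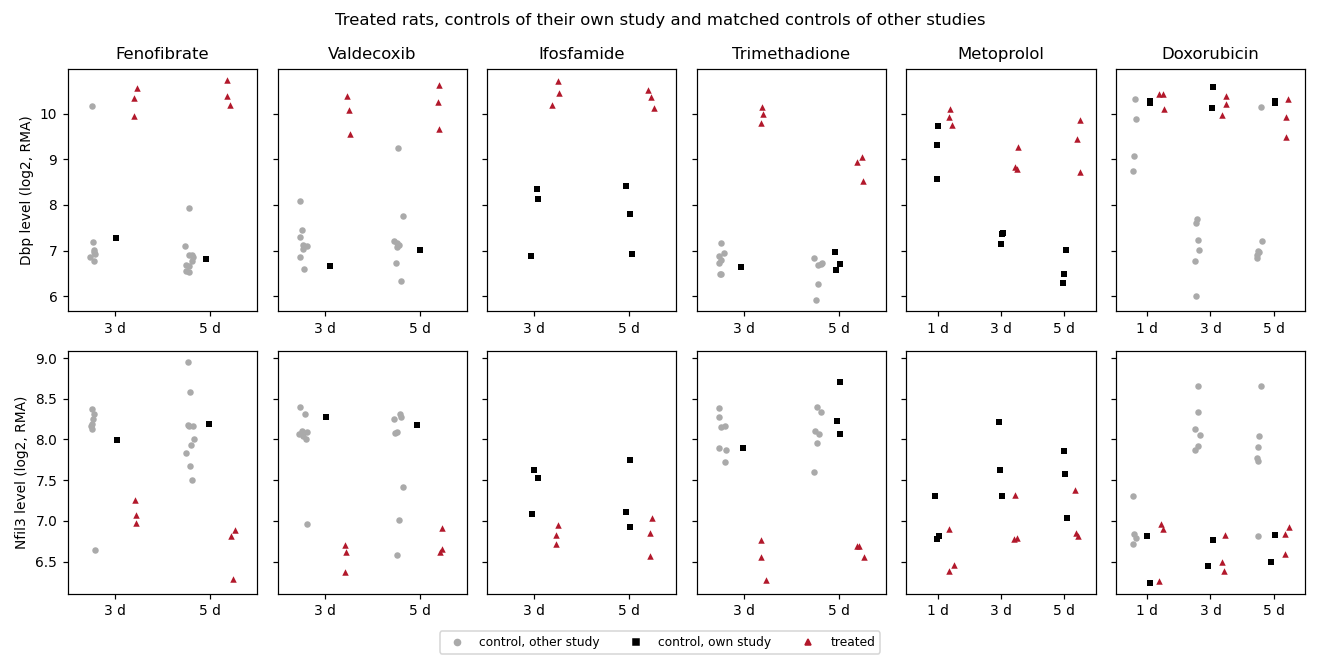
Dbp and Nfil3 level (log2, RMA) of single rats for 6 compounds by duration: treated rats (red triangles), controls of the same study (black squares) and matched controls of other studies (grey circles). Doxorubicin rats lie with their own-study controls, and most other studies' controls lie apart from both at 3 and 5 d.

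For doxorubicin, an anthracycline given intravenously at 3 mg/kg, matched and own-study controls gave different values. The 9 treated rats had Dbp from 9.49 through 10.21 to 10.44. The 6 own-study controls ran from 10.13 through 10.25 to 10.58, and all 22 matched controls from 6.01 through 8.22 to 10.58. The treated rats overlapped their own-study controls. The log2 change was 1.56 (limma adjusted p = 0.0235) against matched and -0.14 (SE 0.123, adjusted p = 0.647) against own-study controls, and for Nfil3 -0.69 and 0.09. Tef was called against matched controls (1.26, adjusted p = 0.000126, and 0.0226 with study means as samples) and was 0.50 higher (adjusted p = 0.0181) against own-study controls, and Hlf was called (0.80, adjusted p = 1.17e-05) and 0.60 higher (adjusted p = 0.0547).

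The other anthracyclines were given at other doses, so they are listed without comparison. Epirubicin at 2.7 mg/kg had a log2 change of Dbp of 0.29 (adjusted p = 0.73), daunorubicin at 3.25 mg/kg of -0.67 (adjusted p = 0.591), and idarubicin at 0.625 mg/kg of -0.81 (adjusted p = 0.876), all by limma against matched controls that they share with doxorubicin. Against own-study controls the Dbp changes were 0.53 for epirubicin (2 controls), -0.20 for daunorubicin (1 control) and 0.32 for idarubicin (3 controls), so the sign for idarubicin turned, and none passed. No member was called in these 3.

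Risperidone, an antipsychotic, and terfenadine, an antihistamine, had no own-study controls. At 22 mg/kg the 6 risperidone rats had Dbp from 10.44 through 10.52 to 10.81, against 6.34 through 7.14 to 10.45 in 18 controls, so the lowest treated and the highest control rat overlapped. The log2 changes were 2.92 for Dbp (SE 0.458, limma adjusted p = 0.000829, and 0.361 with study means as samples), 1.46 for Tef and 0.69 for Hlf, and the latter calls were lost with study means as samples (adjusted p of 0.114 and 0.322). Terfenadine at 750 mg/kg gave Dbp from 9.45 through 10.16 to 10.22, above 18 controls of 6.34 through 7.12 to 9.25. Its log2 changes were 2.82 for Dbp (SE 0.26, adjusted p = 1.29e-07), 1.35 for Tef (SE 0.0991, adjusted p = 1.72e-09) and -1.46 for Nfil3 (SE 0.21, adjusted p = 3.94e-05, and 0.0338 with study means as samples). In the terfenadine rats 4 of 4 red blood cell markers were lower, and their part in this was not tested.

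Further profiles stood near the top for single members. Valsartan, an angiotensin receptor blocker, at 1000 mg/kg had Tef 1.46 and Hlf 0.86 higher (limma adjusted p of 0.00465 and 0.00286). Against its single own-study control neither was called, with 2 treated rats and changes of 1.12 (adjusted p = 0.513) and 1.17 (adjusted p = 0.838), and with study means as samples adjusted p was 0.379 and 0.0349. Valproic acid, an anticonvulsant, at 1500 mg/kg had Tef 1.28 higher, from 8.74 through 9.12 to 9.59 in 6 treated rats against 7.40 through 7.79 to 8.70 in 19 controls, without overlap (adjusted p = 7.5e-06, and 0.024 with study means as samples). Tacrolimus, a calcineurin inhibitor, at 134 mg/kg had Nfil3 from 6.13 through 6.64 to 6.95, against 6.58 through 8.09 to 8.40 in 18 controls, a log2 change of -1.35 (SE 0.218, adjusted p = 0.0001, and 0.0461 with study means as samples). Rofecoxib, a COX-2 inhibitor, at 775 mg/kg had Nfil3 from 6.44 through 6.81 to 7.03, against 6.64 through 8.17 to 8.95 in 19 controls, and a log2 change of -1.28 (SE 0.186, adjusted p = 0.000448, and 0.228 with study means as samples). Against its single own-study control, with 3 treated rats, the rofecoxib change was -1.70 (adjusted p = 0.135). Both overlapped their controls at the low end. Valproic acid and tacrolimus had no own-study control, so compound and study cannot be told apart there.

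Among the fibrates only fenofibrate was called. Clofibric acid at 448 mg/kg had a log2 change of Dbp of 1.16 (limma adjusted p = 0.0877) and of Tef of 0.65 (adjusted p = 0.0136). Bezafibrate at 617 mg/kg had 1.47 for Dbp (adjusted p = 0.158) and 0.73 for Tef (adjusted p = 0.137). The doses and durations of the 3 fibrates differ.

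Corticosteroids act through the glucocorticoid or mineralocorticoid receptor, and their doses, routes, durations and controls differ, so their values stand side by side without comparison. Fludrocortisone acetate at 125 mg/kg had Dbp from 9.06 through 10.02 to 10.60 in 9 treated rats, against 6.34 through 7.12 to 10.45 in 27 controls. Its log2 changes were 2.44 for Dbp (SE 0.328, limma adjusted p = 2.2e-06), 0.99 for Tef (adjusted p = 3.93e-07) and -0.75 for Nfil3 (adjusted p = 0.00686). With study means as samples Dbp (adjusted p = 0.0147) and Nfil3 (adjusted p = 0.295) were not called. Dexamethasone at 1 mg/kg by gavage had Tef called (0.95, adjusted p = 8.76e-06) and Nfil3 called (-0.70, adjusted p = 0.0095), with Dbp at 1.05 (adjusted p = 0.0249) and not called. With study means as samples its Tef and Nfil3 changes had adjusted p of 0.0111 and 0.212. Neither fludrocortisone acetate nor dexamethasone had an own-study control, so compound and study cannot be told apart there.

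Prednisone at 68 mg/kg and prednisolone at 184 mg/kg were tested at 1 d only, with 3 treated rats each. Neither had an own-study control, so compound and study cannot be told apart. The prednisone rats had Dbp of 10.46, 10.58 and 10.60, above 9 controls of 6.40 to 10.45, and the prednisolone rats 10.16, 10.45 and 10.49, above 9 controls of 6.69 to 10.13. The log2 changes of 2.51 and 2.36 missed the limma threshold (adjusted p of 0.0962 and 0.055). In prednisone Hlf was called (0.87, adjusted p = 0.00367, and 0.257 with study means as samples), from 6.26, 6.34 and 6.60 against 5.18 to 6.01 in the controls. Hydrocortisone at 56 mg/kg and cortisone at 206 mg/kg had no member called, with log2 changes of Dbp of 1.15 and 1.04.

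Fluocinolone acetonide, given subcutaneously at 2.5 mg/kg, was the single profile with Dbp called lower. Its 9 treated rats had Dbp from 6.30 through 7.02 to 8.76, and the 9 controls from 6.91 through 7.65 to 10.58. The ranges overlapped in most of their width. The log2 change was -0.90 (SE 0.221, limma adjusted p = 0.00679), with no own-study control. The call was lost in several alternatives, including leaving out control replicate 2 (adjusted p = 0.0569) and study means as samples (adjusted p = 0.158). Tef changed by 0.02 (adjusted p = 0.958) and Nfil3 by 0.39 (adjusted p = 0.218).

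Read duration by duration, the Dbp and Nfil3 calls lay at 3 and 5 d, while Tef and Hlf had calls at 1, 3 and 5 d. Dbp was called higher in 0 of 49 conditions of 1 d, 16 of 72 of 3 d and 14 of 79 of 5 d, against 0.176%, 0.293% and 0.332% of all tests called higher. Its median log2 change was 0.36, 1.32 and 1.19 on these days. Tef was called higher in 4, 13 and 11 conditions and Hlf in 2, 2 and 3. Nfil3 was called lower in 0, 8 and 3, against 0.105%, 0.474% and 0.288% of all tests, with medians of -0.21, -0.76 and -0.60. Dbp of the control rats was higher at 1 d than at 3 and 5 d, and its part in these counts was not tested. Whether a change differs between days was tested per profile as below. The 4 Tef calls at 1 d were candesartan (1.18), chlorobenzene (0.78), fludrocortisone acetate (1.07) and spironolactone (1.27), listed because they are few.

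Of 77 profiles with more than 1 duration, the limma interaction of treatment with duration passed the 0.01 threshold for Dbp in 3 and for no other member, which does not show that the others changed alike on each day. Over all genes 0.117% of tests passed. The profiles were gabapentin at 2500 mg/kg by gavage, and L-phenylephrine at 0.44 mg/kg and norepinephrine at 1.75 mg/kg by mini-pump. In the mini-pump profiles the control rats themselves differed between days, with Dbp of 7.06 and 7.14 at 3 d, and 10.23 and 10.31 at 5 d. Both profiles share these 4 control rats, which were taken as mini-pump controls from their titles, although the route field of most of them reads subcutaneous. Isoprenaline, another adrenergic agonist, given by mini-pump at 2 and 4.2 mg/kg, had Dbp changes of -0.72 (adjusted p = 0.194) and 0.44 (adjusted p = 0.578).

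The core clock list was read beside the members in the same profiles. In guanethidine 5 of the 13 measured were called higher and 4 lower, in fenofibrate 7 and 3, in valdecoxib 5 and 4, in ifosfamide 6 and 2, in terfenadine 6 and 2, in risperidone 4 and 2, in trimethadione 3 and 3, and in metoprolol 2 and 0. Over all 14217 genes in the same order, 38 were called higher and 167 lower, 68 and 84, 29 and 74, 36 and 50, 124 and 139, 31 and 13, 5 and 10, and 7 and 6. Bmal1 was lower in guanethidine (-2.77), valdecoxib (-2.39), ifosfamide (-2.03) and trimethadione (-1.69). Per3 was higher in guanethidine (2.24), valdecoxib (2.00), ifosfamide (1.55) and trimethadione (1.95).

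Of the 9 measured genes listed as following PAR bZIP factors, 2 were higher in fenofibrate, Usp2 (0.83) and Por (0.68), the latter being the electron donor of cytochrome P450 enzymes. In ifosfamide 2 were higher, Usp2 (1.06) and Wee1 (0.78), a cell cycle kinase. In trimethadione none was called. In valdecoxib 1 was higher and 1 lower, Usp2 (0.75) and Alas1 (-0.59), the first enzyme of heme synthesis, beside 2 of 3 neutrophil markers higher there, at a median level of 4.80 to 7.01 in controls and 5.31 to 9.55 in treated rats, whose part was not tested. In guanethidine and in risperidone 1 was higher, in terfenadine 1 was higher and 1 lower, and in metoprolol none was called. The median log2 change of these 9 genes was 0.12 in fenofibrate and valdecoxib, 0.41 in ifosfamide, -0.08 in trimethadione, 0.05 in guanethidine, 0.29 in terfenadine, 0.26 in risperidone and 0.13 in metoprolol, while the median over all genes lay between -0.07 and 0.02 in these profiles.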

How the data were processed

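Poly(A) RNA from rat heart was hybridised to Affymetrix RG230_2.0 arrays. The authors deposited log2 values for 31099 probe sets, normalised by RMA according to the submitters' processing notes, and their range here was 3.15 to 14.8. Of these probe sets 20826 carried 1 gene symbol, giving 14217 genes after keeping the probe set of the highest mean. In 22 rats with 2 arrays the array of the earlier campaign was used. Groups came from the labels, and 12 control rats with disagreeing labels were left out of all comparisons.

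Tests used limma 3.58.1 in R 4.3.3, with duration and campaign as terms and Benjamini-Hochberg adjustment over all genes. A call needed an adjusted p of 0.01 or less and 1.5-fold. The study's methods name limma for signatures and t-tests per compound with a correction for time. Compounds were named by rule: up to 6 called profiles per member and direction with the largest change, and 4 drug classes (corticosteroids, fibrates, anthracyclines, adrenergic agonists by mini-pump). The precision is limited by the number of arrays, usually 3 rats per condition, and rats of 1 study share handling, so p-values cover the spread between these rats.

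The members, lists and tests were chosen with earlier results of these data known. The fits were tested on simulated data with 200 changed genes: 97% of 2-fold changes were recovered in the fenofibrate design, 94% in the guanethidine design and 6% by the interaction test of the norepinephrine design (81% of changes of log2 2). In these designs the simulated rats were independent, with no shared effect of study. How the fits behave under such an effect was not tested. Alternatives covered controls, the methods' t-test, probe sets, filters, normalisation, blocks and left-out rats. An alternative with the mean of each study, duration and arm as 1 sample was added after seeing the data.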

Additional observations from a re-analysis of the deposited data

Results flagged for a closer look

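Dbp changed differently between 3 and 5 d in 3 profiles by the limma interaction test, out of 77 profiles tested. For norepinephrine at 1.75 mg/kg by mini-pump, F was 187 (adjusted p = 0.00029), with log2 changes of 2.95 at 3 d and -0.97 at 5 d. The treated rats had Dbp of 9.69, 10.18 and 10.27 at 3 d, and 8.94, 9.40 and 9.55 at 5 d. For L-phenylephrine at 0.44 mg/kg by mini-pump, F was 168 (adjusted p = 0.000478), with log2 changes of 2.63 and -0.18. Its rats had 9.51, 9.71 and 9.96 at 3 d, and 9.91, 10.12 and 10.23 at 5 d. Both were set against the same 4 control rats, whose own Dbp was 7.06 and 7.14 at 3 d but 10.23 and 10.31 at 5 d, so the control rats differed between days by more than the treated rats did.

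For gabapentin at 2500 mg/kg by gavage, F was 51.8 (adjusted p = 0.00368), with log2 changes of 1.97 at 3 d and 0.16 at 5 d against matched controls of other studies. No rat stood out from its group among the 36 groups and members tested for a lone sample, of which 1 in 20 would stand out by chance. Groups of 3 rats, the treated groups of these 3 profiles included, were too small for this and were not tested.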

How the results depend on the processing

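No called difference changed direction under any alternative. Against own-study controls Dbp was called higher in 5 profiles and lower in 0, Tef higher in 2, Hlf higher in 0 and Nfil3 lower in 3, in the 51 profiles that have such controls, where matched controls gave 8, 8, 3 and 6 calls. In some of these profiles both sets hold the same control rats, so the fit is the same. The mean of each study, duration and arm was taken as 1 sample in an alternative chosen after seeing the data. Dbp was then called higher in 7 and lower in 0, Tef higher in 6, Hlf higher in 2 and Nfil3 lower in 1. The 7 for Dbp were guanethidine, valdecoxib, terfenadine, trimethadione, ifosfamide, flunarizine and sulpiride. Fenofibrate, risperidone, fludrocortisone acetate and metoprolol were among those that lost the call. In each of the 7 the treated rats gave only 2 means, over 3 and 5 d, and ifosfamide had only 2 control means. A study could give 1 mean per duration, so study was not the unit of this alternative. By the methods' t-test Dbp was called lower in 0 and Nfil3 lower in 11, and without doubtful arrays Dbp was called lower in 0. With controls of every campaign Tef was called lower in 2. Leaving out single replicates gave Dbp higher in 16 to 22 and lower in 0 to 1, Tef higher in 14 to 23, Hlf higher in 4 to 6 and Nfil3 lower in 8 to 14.

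Within campaigns the 1 d difference of Tef was 0.36, 0.71, 0.47 and 0.76, each short of the 0.01 threshold that the pooled value passed. Dbp fell short in 1 campaign (1.57) and Nfil3 in 2 (-0.50 and -0.82). The study F test fell short within single durations for Tef (8.55, 8.05 and 4.05 at 1, 3 and 5 d) and Nfil3 (7.14, 3.68 and 5.43). The cause of these losses was not tested, beyond the fewer rats in each. With the study or the hybridisation batch as a random block, counts stayed within 1.5 times. In simulated data the interaction test of the norepinephrine design recovered 6% of changes of log2 1 and 81% of log2 2, so most differences between days of log2 1 would be missed there. Hlf lies below the upper 60% of genes by mean and has no value under that filter. No paired analysis was possible because replicate numbers were given in accession order and pair no rats.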
